A study of Homo sapiens with 16 samples.

Results

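The 3 human STAG genes, STAG1, STAG2 and STAG3, were described across 16 arrays of the cancer cell lines H4, 42MGBA and HCT116. They were the 3 genes, of 18417 with a row of their own on the array, whose rows are annotated to these symbols, and each had 1 such row. STAG1 and STAG2 passed the filter on low values, as did 12978 genes in all, and STAG3 did not. Cohesin is a ring of SMC1A, SMC3 and RAD21 that encircles DNA, holds sister chromatids together until anaphase and extrudes chromatin loops. A STAG protein binds the RAD21 subunit and carries contacts of the ring with DNA and with CTCF, the factor at which loops stop. In somatic cells this place is taken by either STAG1 or STAG2, while STAG3 serves the cohesin of meiotic germ cells. STAG2 lies on the X chromosome, STAG1 on chromosome 3 and STAG3 on chromosome 7.

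H4 and 42MGBA are lines labelled glioblastoma, both with a mutated STAG2, and HCT116 is a colorectal cancer line labelled STAG2 wild-type. In H4 the mutant arrays were parental cells and clones 10 and 12, labelled non-recombinant, and the corrected arrays were the post-Cre knock-in clones 8-1, 8-3 and 88-1. In 42MGBA the deficient arrays were the mutant parental line and the pre-Cre knock-in clones 53 and 92, and the corrected arrays were the post-Cre clones 53-1, 53-7 and 92-6. In HCT116 the knockout clones were 7 and 21 and the non-recombinant wild-type clones 24 and 27. All cultures were untreated and growing, and each array is 1 culture of a line or of 1 clone. Clonal differences unrelated to STAG2 therefore enter every comparison, and the p-values rest on the spread among these cultures alone. In H4 and 42MGBA all corrected arrays and no mutant or deficient array were labelled post-Cre, so Cre exposure and correction cannot be told apart. Within H4 and HCT116 recombination and STAG2 status cannot be told apart either. The corrected H4 clones 8-1 and 8-3 share a clone number, as do several 42MGBA clones, so arrays of a group may not be independent.

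Values are log2 levels as deposited by the authors. The array medians lay at or below 5.05 in 42MGBA, against 6.23 to 6.30 in H4 and 6.24 to 6.29 in HCT116, so levels of 42MGBA were set beside the other lines only as percentiles, and differences within 42MGBA stand on a narrower range (mean interquartile range 3.18, against 3.60 in H4 and 3.57 in HCT116). A percentile is the share of the rows of the same array with a lower or equal value. By mean percentile 11005 of the 12978 genes tested lay above the array median in H4, 11024 in 42MGBA and 10999 in HCT116. EPCAM, an epithelial surface antigen, stood at percentile 97.0 in HCT116, 21.7 in H4 and 26.3 in 42MGBA, and the mesenchymal filament gene VIM stood at 39.3, 96.3 and 98.7 in the same lines. Of the 10 markers of its own label, 6 lay above the array median in HCT116, 4 in H4 and 5 in 42MGBA. Of the 10 markers of the other label, 3 lay above it in HCT116, 4 in H4 and 4 in 42MGBA, so H4 had as many of each. In HCT116 the listed colorectal genes KRT20 (27.9), VIL1 (32.3), LGR5 (23.1) and CEACAM5 (22.5) were low in rank. The astrocyte filament gene GFAP stood at percentile 49.8 in H4 and 45.6 in 42MGBA, and the glial genes S100B (21.6 and 24.9) and OLIG2 (34.8 and 30.1) were lower still, so most markers of the glioblastoma label were under the array median in H4. None of the 4 measured leukocyte markers exceeded the median in any line (0 of 4).

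STAG2 was lower in mutant H4 and knockout HCT116 cells than in their corrected and wild-type counterparts. In H4 it was 6.57 in the parental line, 6.96 in clone 10 and 6.62 in clone 12, against 8.94, 8.91 and 8.87 in the corrected clones 8-1, 8-3 and 88-1. Every mutant array lay below every corrected array, as was the case for 8.68% of all genes tested. In HCT116 it was 6.57 and 7.14 in the knockout clones 7 and 21, against 9.28 and 9.30 in the wild-type clones 24 and 27. Here the groups did not overlap either, a state shared by 22.1% of genes.

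**Figure D1:**
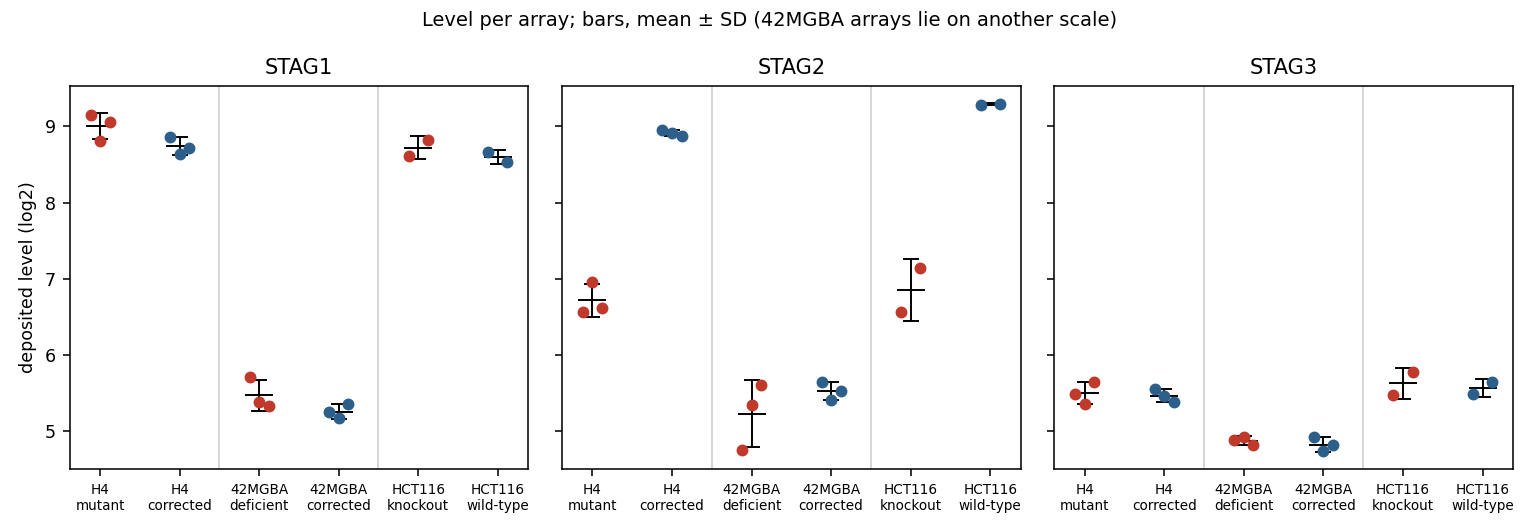
Deposited log2 level of STAG1, STAG2 and STAG3 in each of 16 arrays (points; red, mutant, deficient or knockout; blue, corrected or wild-type), with the mean ± SD of each group. STAG2 is 6.57 to 7.14 in the mutant H4 and knockout HCT116 arrays and 8.87 to 9.30 in their corrected and wild-type counterparts, whereas the STAG1 and STAG3 groups overlap within every line; 42MGBA values lie on another scale.

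STAG2 fell by 2.19 on the log2 scale in mutant H4 cells (SE 0.19, adjusted p = 2.37e-05, limma) and fell by 2.44 in HCT116 knockouts (SE 0.23, adjusted p = 0.000115, limma). Genes called in either direction made up 3.31% of those tested in H4 and 0.131% in HCT116. By size of the difference STAG2 was number 17 of the 12978 genes in H4 and number 5 in HCT116, where no gene fell further, and it ranked first in the mean over the 3 lines. It was the only gene called in both H4 and HCT116, that is 0.233% of the 429 calls in H4 and 5.88% of the 17 in HCT116. With HCT116 fitted alone the difference was the same size but did not pass (adjusted p = 0.0616, limma). An exact two-sided permutation test gave p = 0.100 in H4 and p = 0.333 in HCT116, the smallest that 3 against 3 and 2 against 2 arrays allow.

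STAG2 values were more spread in the mutant and knockout arrays. In H4 the SD was 0.21 in mutant arrays (n = 3) and 0.036 in corrected arrays (n = 3). In HCT116 it was 0.41 in knockouts (n = 2) and 0.011 in wild-type clones (n = 2). The SD of STAG2 exceeded that of 72.5% of all genes tested in mutant H4 arrays and of 7.69% in corrected ones. For HCT116 these shares were 94.7% in knockouts and 7.89% in wild-type clones. This difference in spread was not tested.

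The STAG2 row stood above the array median in all mutant H4 and knockout HCT116 arrays. It stood there below the median of the genes tested, which lay at percentile 70.3 in both lines. STAG2 stood between percentiles 54.6 and 60.5 of the array in mutant H4 cells, against 83.5 to 84.5 in corrected cells. It stood at 54.8 and 62.8 in HCT116 knockouts and at 87.3 in both wild-type clones. In the parental 42MGBA array, labelled mutant, STAG2 stood at 45.8, below the STAG3 row of that array (47.9). The STAG2 row reads transcript abundance along the gene and does not tell a mutated transcript from an intact one. Detection over background was not used here, so whether the low values exceed background was not tested. RNA of whole cultures was measured, so fewer expressing cells and less RNA per cell cannot be told apart.

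In 42MGBA the STAG2 groups overlapped. The level was 4.75 in the parental line, 5.34 in clone 53 and 5.60 in clone 92, against 5.65, 5.41 and 5.53 in the corrected clones 53-1, 53-7 and 92-6. A full separation of the groups was seen in this line for 6.33% of genes with the deficient arrays lower and for 2.57% with them higher. The parental array was the lowest, and clone 92, labelled deficient, lay above 2 of the 3 corrected clones. The difference was -0.30 (95% interval -0.70 to 0.10, adjusted p = 1.00, limma), and it was -0.06 without the parental array and -0.48 without clone 92. No gene was called in this line (0 of 12978 by limma, 0.00%; 512 at an unadjusted p under 0.05). The difference in H4 minus that in 42MGBA was -1.89 (SE 0.26, adjusted p = 0.00902, limma), a contrast in which 0.254% of genes were called. The difference in HCT116 minus that in 42MGBA was -2.14 (SE 0.29, adjusted p = 0.0140, limma), with 0.0231% of genes called. The HCT116 call was lost without clone 53 (adjusted p = 0.0538), 53-7 (0.0650), 24 (0.0635) or 27 (0.0820), by limma in each case, with differences of -2.08, -2.08, -2.14 and -2.13. With clones of 1 parent clone averaged neither passed (adjusted p = 0.0725 for H4 and 0.0980 for HCT116, limma). The STAG2 difference in H4 minus that in HCT116 was 0.24 (95% interval -0.39 to 0.87, adjusted p = 0.777, limma; 0.293% of genes called). As STAG2 did not separate the 42MGBA groups, directions in that line rest on its labels.

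**Figure D2:**
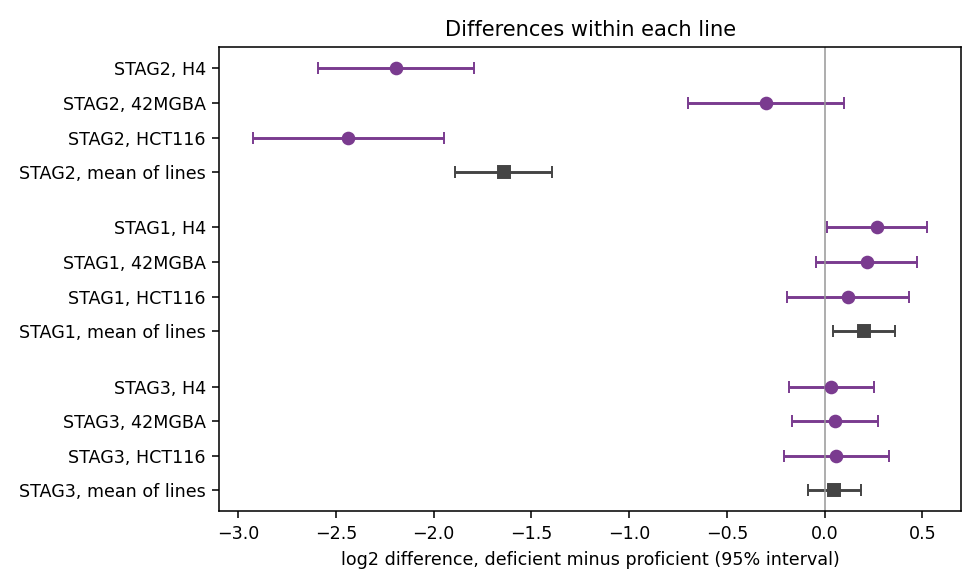
Log2 difference, deficient (mutant or knockout) minus proficient (corrected or wild-type), of STAG2, STAG1 and STAG3 in each line and averaged over the 3 lines, with 95% intervals from limma. STAG2 is at -2.19 in H4, -0.30 in 42MGBA and -2.44 in HCT116; STAG1 is between 0.12 and 0.27, and STAG3 between 0.03 and 0.06.

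STAG1, the alternative somatic subunit, had a higher mean in the deficient arrays of each line, by amounts that did not pass the test. In H4 it was 9.15, 8.81 and 9.06 in the parental line and clones 10 and 12, against 8.87, 8.63 and 8.71 in clones 8-1, 8-3 and 88-1. Clone 10 lay below the corrected clone 8-1, so the groups overlapped by this pair. In 42MGBA it was 5.71, 5.38 and 5.33 in the parental line and clones 53 and 92, against 5.25, 5.17 and 5.36 in clones 53-1, 53-7 and 92-6. Clone 92 lay below 92-6. In HCT116 it was 8.61 and 8.82 in knockout clones 7 and 21, against 8.66 and 8.53 in wild-type clones 24 and 27, with clone 7 below clone 24.

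The STAG1 difference was 0.27 in H4 (95% interval 0.01 to 0.53), 0.21 in 42MGBA (-0.04 to 0.47) and 0.12 in HCT116 (-0.19 to 0.43), with adjusted p = 0.276, 1.00 and 0.898 by limma. Full separation with the deficient arrays higher was seen for 12.1% of genes in H4 and 18.5% in HCT116. Averaged over the 3 lines the STAG1 difference was 0.20 (SE 0.07, unadjusted p = 0.0172, adjusted p = 0.388, limma), and 18 genes, 0.139%, passed in that contrast, STAG2 with the smallest p of all. A higher mean in the deficient arrays of all 3 lines was shared by 10.5% of genes tested, and a lower mean in all 3, which STAG2 had, by 14.6%. The parental line had the highest STAG1 and the lowest STAG2 value of its line in both H4 and 42MGBA. Without the parental arrays the STAG1 difference was 0.20 in H4 and 0.10 in 42MGBA. In HCT116 it was 0.23 without knockout clone 7, 0.013 without knockout clone 21, 0.18 without wild-type clone 24 and 0.055 without wild-type clone 27. The STAG1 difference did not differ between lines by the test (adjusted p from 0.787 to 0.997, limma), and the intervals of these comparisons reach from -0.50 to 0.55.

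Between the lines on 1 scale, STAG1 was 9.01 ± 0.17 in mutant H4 (SD, n = 3) and 8.72 ± 0.15 in knockout HCT116 cells (SD, n = 2), a difference of 0.29 (adjusted p = 0.0887, limma). It was 8.74 ± 0.12 in corrected H4 (SD, n = 3) and 8.60 ± 0.09 in wild-type HCT116 cells (SD, n = 2), a difference of 0.14 (adjusted p = 0.408, limma). Without clone 10 the first of these passed (0.39, adjusted p = 0.0319, limma). For STAG2 the differences were -0.14 between mutant H4 and knockout HCT116 (adjusted p = 0.626, limma) and -0.38 between corrected H4 and wild-type HCT116 (adjusted p = 0.141, limma). In these contrasts 48.1% and 52.7% of all genes were called, so the STAG genes were among the many that were not.

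STAG3, the meiotic subunit, was low throughout. It was 5.36 to 5.65 in mutant H4 and 5.38 to 5.56 in corrected H4 cells, and 5.48 and 5.77 in knockout and 5.49 and 5.65 in wild-type HCT116 cells. In 42MGBA it was 4.82 to 4.93 in deficient and 4.74 to 4.93 in corrected arrays. All 16 values lay under the median of their array, and the groups overlapped in each line. In a fit of all 18417 genes the differences were 0.03 in H4, 0.05 in 42MGBA and 0.06 in HCT116, with 95% intervals inside -0.21 and 0.33 (adjusted p = 0.937, 1.00 and 0.981, limma). For H4 and HCT116 their sign turned when single arrays were left out.

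STAG3 has partial copies elsewhere on chromosome 7, and 4 further rows list several symbols among which are STAG3-like loci. One of these rows lists STAG3 itself beside 4 other symbols and is therefore named for no gene. It was 9.77 ± 0.18 in mutant and 9.64 ± 0.15 in corrected H4 arrays (SD, n = 3 each), 8.21 ± 0.10 and 8.28 ± 0.09 in deficient and corrected 42MGBA arrays (SD, n = 3 each), and 9.21 ± 0.13 and 9.25 ± 0.07 in knockout and wild-type HCT116 arrays (SD, n = 2 each). Transcripts of STAG3 and of these copies cannot be told apart in that row. STAG3L4, the 1 copy with a row of its own, was 7.49 ± 0.04 in mutant and 7.16 ± 0.22 in corrected H4 arrays (SD, n = 3 each; difference 0.33, adjusted p = 0.157, limma). STAG3L4 differed by 0.06 in 42MGBA (adjusted p = 1.00, limma) and by -0.19 in HCT116 (adjusted p = 0.797, limma). Of 15 other genes of meiotic cohesin and the meiotic chromosome axis with a row, 14 lay under the array median in H4 and HCT116 and 13 in 42MGBA. REC8, the kleisin that replaces RAD21 in meiosis, stood at percentile 47.4 in H4, 60.7 in 42MGBA and 44.4 in HCT116. The meiotic ring gene SMC1B stood at 8.59, 6.27 and 10.6 in the same lines, and RAD21L1 at 9.39, 9.30 and 10.4.

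Ranks within the array were used to set 42MGBA beside the other lines. STAG2 stood at percentile 55.7 ± 5.2 in 42MGBA (SD, n = 6), against 57.6 ± 3.8 in mutant H4 and knockout HCT116 arrays (SD, n = 5) and 85.3 ± 1.8 in their corrected and wild-type arrays (SD, n = 5). By exact permutation, two-sided and adjusted over 6 tests, 42MGBA differed from the corrected and wild-type arrays by -29.6 percentile points (adjusted p = 0.00260) and differed from the mutant and knockout arrays by -1.93 points (adjusted p = 0.554). Lying entirely below the corrected and wild-type arrays was common, at 29.0% of genes tested. Lying entirely above them, which the two-sided test also counts, was seen for a further 28.2%.

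STAG1 was also low in 42MGBA, against both kinds of array. It stood at percentile 55.3 ± 3.0 in 42MGBA (SD, n = 6), against 83.6 ± 2.1 in mutant H4 and knockout HCT116 arrays (SD, n = 5) and 81.5 ± 1.4 in corrected and wild-type arrays (SD, n = 5). The differences of -28.3 and -26.2 points had the smallest p that 462 splits allow (exact permutation p = 0.00216, adjusted p = 0.00260). Full separation in either direction gives a p at or near this value. Against the mutant and knockout arrays 28.2% of genes lay entirely below and 27.2% entirely above. Against the corrected and wild-type arrays these shares were 29.0% and 28.2%. All 42MGBA arrays lay below all 10 others, as for 25.8% of genes (28.2% against the mutant and knockout arrays alone), and 3.23% of genes had a more negative shift of the mean percentile. STAG3 stood higher in 42MGBA, at 47.3 ± 1.3 (SD, n = 6), against 39.3 ± 2.2 and 38.4 ± 1.5 in the mutant or knockout and the corrected or wild-type arrays (SD, n = 5 each; adjusted p = 0.00260 for both, exact permutation). All 42MGBA arrays lay above the mutant and knockout arrays, as for 27.2% of genes, and above the corrected and wild-type arrays, as for 28.2%. For STAG3 this is a rank among rows under the median. These 6 tests share the 42MGBA arrays, and line, origin and the scale of the arrays cannot be told apart in them. Their p-values rest on the spread among arrays, several from related clones, and not on that among lines.

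**Figure D3:**
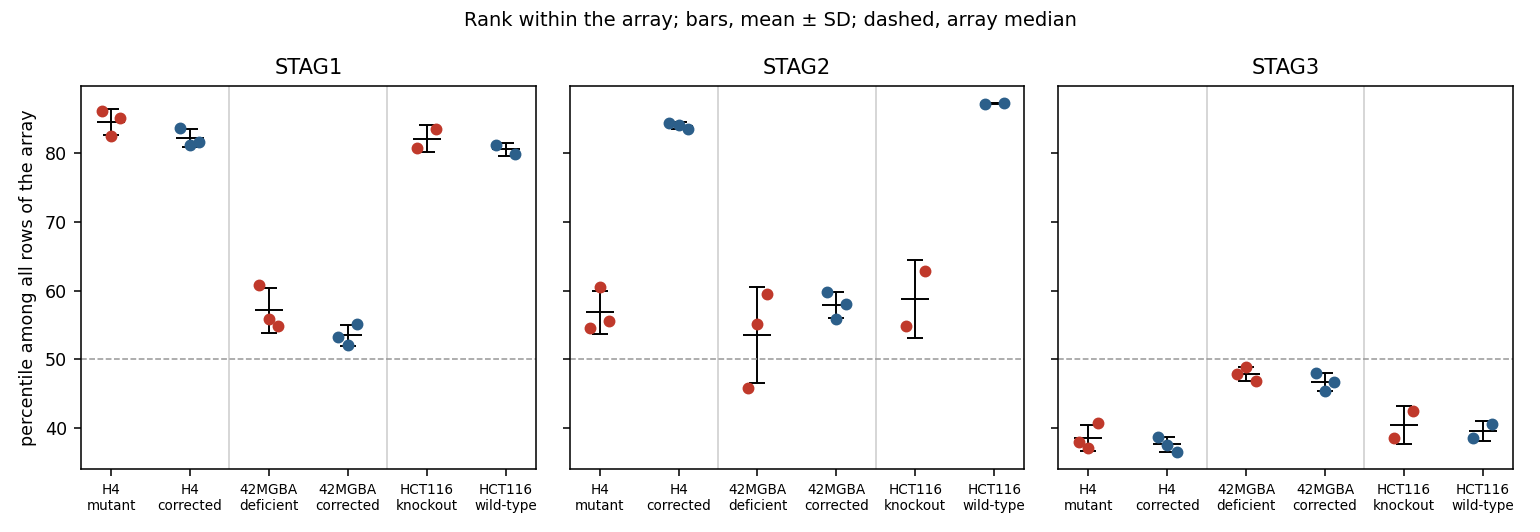
Percentile of STAG1, STAG2 and STAG3 among all rows of the same array, for each of 16 arrays (points; red, mutant, deficient or knockout; blue, corrected or wild-type), with the mean ± SD of each group and the array median dashed. STAG2 in all 42MGBA arrays lies at 45.8 to 59.8, near the mutant H4 and knockout HCT116 arrays, and STAG1 in 42MGBA lies at 52.2 to 60.9, below all arrays of H4 and HCT116.

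From the lowest to the highest mean percentile, STAG2 ran from deficient 42MGBA (53.5) through mutant H4 (56.9), corrected 42MGBA (57.9) and knockout HCT116 (58.8) to corrected H4 (84.1) and wild-type HCT116 (87.3). The first 4 groups overlapped with their neighbours, and the last pair were each apart from the group below. STAG1 ran from corrected 42MGBA (53.5) and deficient 42MGBA (57.2) to wild-type HCT116 (80.6), knockout HCT116 (82.1), corrected H4 (82.2) and mutant H4 (84.6), with its single gap between 42MGBA and the rest. STAG3 ran from corrected H4 (37.6), mutant H4 (38.6), wild-type HCT116 (39.6) and knockout HCT116 (40.5) to corrected (46.7) and deficient 42MGBA (47.9), with the gap again at 42MGBA.

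Of 20 other listed cohesin subunits and regulators 19 were tested, and 0 were called in H4, 42MGBA or HCT116 by limma. Over all genes the called share was 3.31% in H4, 0.00% in 42MGBA and 0.131% in HCT116, so few or no calls among 19 genes is near the background. At an unadjusted p under 0.05 there was 1 lower in H4, 0 in 42MGBA and 1 higher in HCT116, against 16.4%, 3.95% and 7.83% of all genes. The median difference was -0.08 in H4, -0.04 in 42MGBA and -0.02 in HCT116, against 0.02, -0.03 and -0.01 over all genes tested. In H4 15 were lower and 4 higher, in 42MGBA 12 and 7, and in HCT116 10 and 9. Of all genes tested 45.6%, 60.3% and 53.4% were lower in these lines. This lean in direction was not tested. The ring genes differed by -0.15 (SMC1A), -0.26 (SMC3) and -0.07 (RAD21) in H4 (adjusted p = 0.557, 0.263 and 0.806, limma). In HCT116 they differed by -0.12, 0.02 and 0.15 (adjusted p = 0.879, 0.992 and 0.817, limma). The lowest unadjusted p of the list was that of NIPBL, the loader of the ring, in HCT116, with a difference of 0.33 (adjusted p = 0.563, limma). In H4 the cohesin acetyltransferase gene ESCO2 differed by -0.32, the separase gene ESPL1 by -0.29 (adjusted p = 0.364 and 0.383, limma) and HDAC8, the deacetylase of SMC3, by -0.11. ESCO1, the other acetyltransferase, differed by 0.27 in HCT116 (adjusted p = 0.733, limma).

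In rank, several cohesin genes also stood lower in 42MGBA. Of the 19, 14 had a lower and 5 a higher mean percentile in 42MGBA than in the other lines, with a median shift of -5.07 points, against 51.0% lower, 49.0% higher and a median of -0.21 over all genes. All 42MGBA arrays lay below all others for 9 of the 19, against 25.8% of all genes. ESCO2 stood at 48.2 in 42MGBA and 79.9 in the other lines, SMC1A at 68.9 and 88.4, and ESCO1 at 59.3 and 78.2. RAD21 stood at 95.2 and 96.1, and NIPBL at 85.2 and 86.2. AURKB, the mitotic kinase, was at 89.8 in 42MGBA, against 77.7 in H4 and 89.4 in HCT116, where its range lay within that of 42MGBA.

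**Figure D4:**
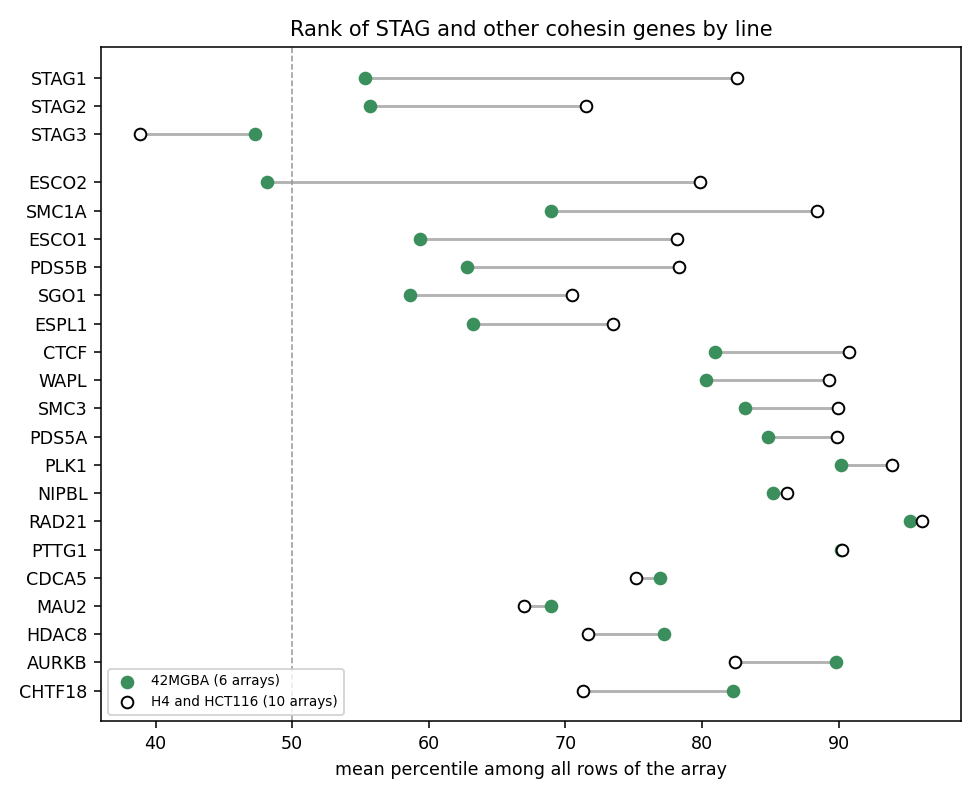
Mean percentile within the array of the 3 STAG genes (top) and 19 other cohesin genes in 42MGBA (filled, 6 arrays) and in H4 and HCT116 together (open, 10 arrays). STAG1 shifts by -27.2 points and ESCO2 by -31.7, while RAD21 shifts by -0.88; the STAG2 value of the other lines averages over its high and low states.

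Of the 10 tested genes nearest to STAG2 on the X chromosome, 5 on either side, 0 were called in H4, 42MGBA or HCT116 by limma, and at an unadjusted p under 0.05 there were 0, 1 and 1, a level reached by 16.4%, 3.95% and 7.83% of all genes. XIAP, the apoptosis inhibitor on one side, differed by -0.16 in H4, -0.11 in 42MGBA and -0.07 in HCT116, and TENM1, a teneurin on the other, by -0.31, -0.13 and 0.15. Around STAG1, 2 of 10 neighbours were called in H4, against 3.31% of all genes. The receptor gene IL20RB rose by 1.35 (SE 0.24, adjusted p = 0.00755, limma), and PPP2R3A, a regulatory subunit of the phosphatase PP2A, fell by 0.71 (SE 0.16, adjusted p = 0.0256, limma). The nearest neighbours of STAG1, PCCB and SLC35G2, differed by 0.14 and 0.31 in H4. Around STAG3, 2 of 10 neighbours were called in H4, against 3.31% of all genes. At an unadjusted p under 0.05 (limma) 6 were higher in H4, a level reached in either direction by 16.4% of all genes. LAMTOR4, of the Ragulator complex on lysosomes, rose by 0.62 in H4 (SE 0.14, adjusted p = 0.0273, limma), and MEPCE, which caps the 7SK RNA, rose by 0.54 (SE 0.12, adjusted p = 0.0308, limma). The median difference of the STAG3 neighbours was 0.30 in H4, 0.02 in 42MGBA and -0.07 in HCT116. The STAG3 row itself differed by 0.03 in H4, and its nearest tested neighbours, GPC2 and CASTOR3P, by -0.08 and -0.02.

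**Figure D5:**
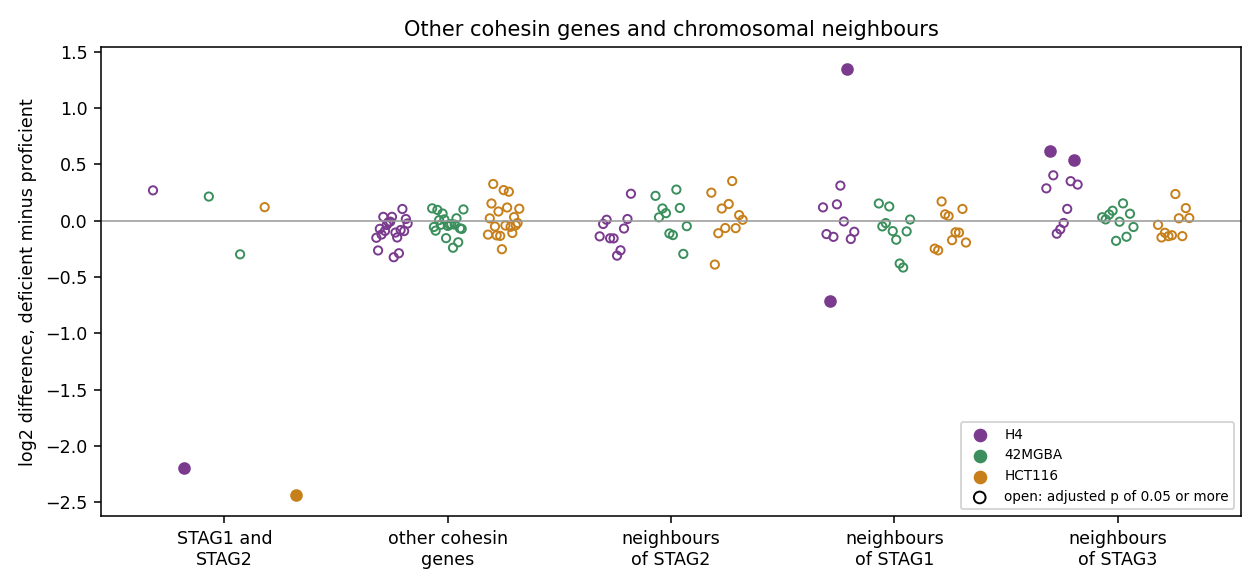
Log2 difference, deficient (mutant or knockout) minus proficient (corrected or wild-type), of STAG1 and STAG2, 19 other cohesin genes and the 10 nearest tested neighbours of each STAG gene, by line; filled points have an adjusted p under 0.05 (limma). Apart from STAG2 at -2.19 and -2.44, the filled points are 4 neighbours of STAG1 and STAG3 in H4, where 3.31% of all genes tested were called.

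Genes whose values most resembled those of STAG2 were ranked by Pearson's r over the 16 arrays after each line's mean had been taken off. The first was EHBP1, an adaptor of endocytic traffic (r = 0.95), which differed by -0.37 in H4 (adjusted p = 0.0191, limma), -0.02 in 42MGBA and -0.47 in HCT116 (adjusted p = 0.106, limma). PSD3, an exchange factor of ARF6 (0.86), the Notch coactivator gene MAML2 (0.85), the metalloprotease inhibitor gene TIMP2 (0.85) and SUGCT (0.82) came next. Most opposed to it were ERGIC3 (-0.86), PNRC2 (-0.86), SLC44A3 (-0.86), TCTA (-0.84) and PRKCSH (-0.84). For STAG1 the likest genes were TMEM151A (0.86), PLEKHA2 (0.85), the receptor kinase gene MET (0.85), NRM (0.82) and CRIM1 (0.81), and for STAG3 KCNK3 (0.90), SNAI3 (0.85), BATF (0.85), FADS6 (0.85) and SPNS2 (0.84). These values share the arrays and, for STAG2, the contrast of its own groups, and they are the extremes of 12978 genes.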

How the data were processed

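Each culture's total RNA was read on 1 Affymetrix Human Gene 1.0 ST array. The 16 columns deposited by the authors give log2 values for 33297 rows; the submitters' processing notes name RMA and the Affymetrix Expression Console; versions and settings are not given in the sources used here, and the log2 scale follows from the range. RMA corrects background, aligns arrays and summarises the probes of a row. With no scanner files used here, low rows were not tested against background.

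Rows with 1 gene symbol (19460) were named through the platform annotation and RefSeq (GRCh38.p14), keeping the row with the highest mean per gene. A gene was tested if it exceeded the array median on at least 2 arrays. limma 3.58.1 in R 4.3.3 fitted 6 groups over 16 arrays, so that SEs and p-values rest on 1 spread per gene shared by the lines. Two-sided p-values were adjusted within each contrast over every tested gene (Benjamini-Hochberg), and genes under 0.05 were called. The script was tested on simulated data. No pair of arrays was identical.

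Named genes were the STAG genes, SMC1A, SMC3, RAD21, list members or neighbours that passed, up to 6 list members with the smallest p, the nearest neighbours, and the 5 likest genes by r. ESCO2, SMC1A and others named for their rank, such as AURKB, were chosen after their values were seen. Members, lists and tests were chosen with earlier results of these data known. Alternatives were each array left out, other filters, scalings and row choices, single-line fits, averaged clones, no parental arrays and a parent clone block.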

Additional observations from a re-analysis of the deposited data

Results flagged for a closer look

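The STAG2 difference differed between lines by a test of the difference itself, which gave -1.89 for H4 minus 42MGBA (adjusted p = 0.00902, limma) and -2.14 for HCT116 minus 42MGBA (adjusted p = 0.0140, limma). IL20RB, the third tested gene beyond STAG1 on its chromosome, was higher in mutant H4, at 9.16 against 7.81 in corrected H4 cells, while in 42MGBA it was 5.19 in deficient and 5.61 in corrected arrays. Its difference in H4 exceeded that in 42MGBA by 1.77 (adjusted p = 0.0463, limma), number 31 by p of the 33 genes called. In HCT116 IL20RB differed by -0.11 (adjusted p = 0.970, limma). It was not among the 38 genes called for H4 minus HCT116. With 2 or 3 arrays a group, no group was large enough for a search for outlying arrays.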

How the results depend on the processing

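The STAG2 call in H4 passed under all 25 alternatives (differences from -2.32 to -2.05), and that in HCT116 passed under all but the fit of single lines (-2.44, adjusted p = 0.0616, limma). No STAG1 or STAG3 difference within a line passed under any alternative. With clones of 1 parent clone averaged, the STAG2 difference of differences did not pass for H4 (-1.88, adjusted p = 0.0725, limma) or HCT116 (-2.14, adjusted p = 0.0980, limma) against 42MGBA; without 1 array the HCT116 value ran from -2.43 to -1.85. Small differences changed sign. STAG1 did so for H4 minus 42MGBA with quantile normalisation (-0.0079; -0.018 to 0.17 without 1 array), and for HCT116 minus 42MGBA with the replicate block on the parent clone (0.034) and without parental arrays (0.023; -0.20 to 0.023 without 1 array). STAG3 did so for H4 minus 42MGBA with averaged clones (0.00064) and median-centred arrays (0.00066), for HCT116 minus 42MGBA with quantile normalisation (-0.021) and centring (-0.016), and for H4 minus HCT116 with the same (0.0057 and 0.017). Without 1 array these 3 ran from -0.092 to 0.052, from -0.14 to 0.15 and from -0.17 to 0.12. Also without 1 array, STAG3 ran from -0.040 to 0.10 in H4, from -0.088 to 0.20 in HCT116, from -0.00050 to 0.097 in the mean and from -0.27 to 0.018 between mutant H4 and knockout HCT116. STAG2 ran from -0.046 to 0.53 for H4 minus HCT116 and from -0.43 to 0.15 between mutant H4 and knockout HCT116, where STAG1 ran from 0.18 to 0.40. The percentile of STAG2 in 42MGBA against the mutant and knockout arrays ran from -2.75 to 0.049 points. The causes were not tested.

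Clones 53, 53-1 and 53-7, and 92 and 92-6, share a parent number. Their deviations correlated at 0.05, 0.16 and -0.17, against -0.20 for 53 with 92-6, 0.28 for 92 with 53-1 and -0.09 for 92 with 53-7. These values share arrays and are not free of each other, so they cannot decide whether same-numbered clones are independent. With the replicate block STAG2 in 42MGBA differed by -0.08 (adjusted p = 0.989, limma), and the block changed no STAG call. The count of genes called ranged over all alternatives from 34 (single-line fit) to 633 (no parental arrays) in H4 against 429, from 3 (single-line fit) to 77 (without knockout clone 7) in HCT116 against 17, and from 0 to 9 (without 53-1) in 42MGBA against 0. Averaging clones of 1 parent clone left 165 genes called in H4 and 10 in HCT116. With few arrays a group and no detection calls, small differences and the low STAG3 signal are limited in precision.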
